A study of Mus musculus with 6 samples.

Results

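A set of 10 genes that carry the signals of interleukin 12 (IL-12), IL-6, IL-27, IL-10 and interferon gamma (IFN-γ) was examined in regulatory T cells (Tregs) with and without Zfp335. They were taken by gene symbol from the table of counts per gene, and all 10 of the 10 were found among its 13709 rows. Of these, 8 encode receptor chains (Il12rb1, Il12rb2, Il27ra, Il6ra, Il6st, Il10ra, Ifngr1 and Ifngr2), and Stat3 and Stat4 encode transcription factors that these receptors switch on. CD4+YFP+CD25+ Tregs had been sorted from 3 WT samples (Foxp3Cre) and 3 KO samples (Foxp3Cre Zfp335fl/fl) of C57BL/6 mice 2 weeks old, and bulk RNA-Seq had been done. Both genotypes carried Cre and YFP at the Foxp3 locus, so in KO mice the floxed gene was deleted in cells that had expressed Foxp3, and the same locus supplied the YFP used for sorting. The labels named both lymph nodes and spleen as the tissue, and the number of mice behind a sample was not given in the sources used here, so p-values measure the spread between these samples. KO cells came from KO animals, so effects within the cells and effects of the animal they grew in cannot be told apart.

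Cytokines of these families act through pairs of receptor chains that hold Janus kinases (JAKs). When the cytokine joins the chains, the JAKs phosphorylate a STAT protein, which moves to the nucleus and binds DNA. IL-12 acts mainly through STAT4, and both IL-12 and IFN-γ belong to the type 1 helper (Th1) response of T cells. IL-6 and IL-10 act mainly through STAT3, and IL-27 also uses it. In Tregs, STAT3 signals are known for restraint of Th17 responses, and IL-12 and IFN-γ signals for a Th1-like state.

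The DNA in front of the members was read from RefSeq promoter windows of GRCm38.p6 (mm10), which cover 250 bases before and 50 bases after a start site. They held 8 windows for 7 members, since Stat4 had a window at each of 2 start sites, and Il12rb1, Il27ra and Il10ra were not matched. Both strands were searched for the STAT binding motif GAS (TTCNNNGAA), which 8.3% of 32851 windows held, and for the core of the interferon response element ISRE (TTTCNNTTTC), which 3.44% held. Matches were found for Il12rb2, the receptor gene with the widest difference between genotypes, and for Stat4. The sequences below are those 2 together with Ifngr1 and Il6st, a member that was higher and a member that was lower in KO, and they stop before any annotated exon. Capitals mark a motif match.
Il12rb2, chr6:67376294-67376438, minus strand: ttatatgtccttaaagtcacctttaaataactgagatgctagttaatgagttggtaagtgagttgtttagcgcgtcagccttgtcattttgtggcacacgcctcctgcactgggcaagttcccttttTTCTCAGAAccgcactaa
Stat4, chr1:52007990-52008239, plus strand: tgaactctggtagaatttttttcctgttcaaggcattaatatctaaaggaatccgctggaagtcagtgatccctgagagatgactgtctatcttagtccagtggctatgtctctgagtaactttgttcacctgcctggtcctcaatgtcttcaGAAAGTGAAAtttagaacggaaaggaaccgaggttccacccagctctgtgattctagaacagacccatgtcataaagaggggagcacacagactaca
Ifngr1, chr10:19591699-19591948, plus strand: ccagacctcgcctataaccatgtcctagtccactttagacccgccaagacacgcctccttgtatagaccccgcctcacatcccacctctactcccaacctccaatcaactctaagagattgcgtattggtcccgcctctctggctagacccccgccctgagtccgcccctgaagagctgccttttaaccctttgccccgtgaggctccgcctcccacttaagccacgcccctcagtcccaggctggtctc
Il6st, chr13:112463820-112464069, plus strand: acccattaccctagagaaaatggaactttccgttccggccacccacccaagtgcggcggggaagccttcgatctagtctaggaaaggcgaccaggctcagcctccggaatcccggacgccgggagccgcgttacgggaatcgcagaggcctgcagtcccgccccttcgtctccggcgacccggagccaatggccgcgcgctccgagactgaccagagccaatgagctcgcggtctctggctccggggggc
The Il12rb2 match was TTCTCAGAA, a GAS motif that began 123 bases before the start site of its window. That start site lies inside the gene as annotated from its outermost start, so the motif is nearer to the outermost start. The Stat4 match was GAAAGTGAAA, the ISRE core read on the other strand, 97 bases before the start site of its second window, which lies within the gene. The windows of Il6ra, Il6st, Ifngr1, Ifngr2 and Stat3 and the first window of Stat4 held neither motif. CG dinucleotides were unevenly spread, with 33 in the 300-base window of Il6st, 31 in Ifngr2 and 25 in Il6ra, against 12 in Il12rb2, 2 and 4 in the windows of Stat4 and a median of 7 over all windows. A match is a string of letters and does not show binding.

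Library totals lay between 32032631 and 40728419 counts, at which 3 counts, the smallest level taken as distinct from 0, corresponded to 0.0747 to 0.0913 CPM (counts scaled by the TMM-adjusted library total). Zfp335 lay between 94.3 and 103 CPM in WT and between 37.0 and 40.2 CPM in KO (fitted log2 difference -1.37, SE 0.07, edgeR quasi-likelihood test, Benjamini-Hochberg adjusted p 2.14e-05), in the direction of the labels. Pcif1, a gene on the opposite strand, shares 1107 exon bases (23.3%) with Zfp335, and its part in the counts was not tested. WT replicate 3 stood apart, and the biological coefficient of variation was 0.263 within WT, 0.126 for WT replicates 1 and 2 and 0.0703 within KO. The 7 Treg markers summed to 4135 to 5369 CPM in WT and 3515 to 3618 CPM in KO, so the defining markers were abundant in both genotypes, with Foxp3 and Ikzf2 lower in KO. Markers of other cells, Ighm apart, were low but not even. The 8 myeloid markers summed to 16.8 to 28.6 CPM in WT and 51.9 to 62.3 CPM in KO (7 of 8 higher, with S100a8 and S100a9 at 0 in WT), and the 6 CD8 T cell and NK cell markers to 13.6 to 20.9 and 57.1 to 59.96 CPM (4 of 6 higher). In that list the largest rises in CPM were of Klrk1 (mean 0.92 in WT and 30.1 in KO) and Eomes (2.31 and 11.3). Cd8a went from 1.86 to 3.71 CPM, and Cd8b1 (9.16 and 8.69 CPM) was not called. The 5 dendritic cell markers summed to 2.41 to 4.24 and 8.92 to 11.6 CPM (1 of 5 higher, Itgax, at a mean of 0.436 CPM in WT and 7.03 CPM in KO). The 7 B cell markers summed to 447 to 718 and 188 to 200.3 CPM (2 of 7 lower), of which all but Ighm made up 18.4 to 21.1 and 12.9 to 14.2 CPM. The part of these cells in the results was not tested.

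Both chains of the IL-12 receptor, the first chain of the IFN-γ receptor and Stat4 rose in KO Tregs, and both chains of the IL-6 receptor fell. Il12rb2 went from 1.28 to 94.0 CPM, Ifngr1, Stat4 and Il12rb1 more than doubled, and Il6ra and Il6st fell to 36.8% and 36.9% of WT. The call required a fold change over 1.5 with p under 0.05 and adjusted p under 0.1. Values per sample are given in the order of replicates 1 to 3. By these cutoffs 4 members were higher and 2 were lower, while Il27ra, Ifngr2, Il10ra and Stat3 were not called. Of the 13594 genes tested, 24.4% were called, 11.9% as higher and 12.5% as lower in KO. The KO and WT values did not overlap for any of the 10 members, which was the case for 53.8% of all genes. The median log2 fold change was -0.11 over the members and -0.04 over all genes. In bulk samples, fewer cells of a type and less RNA per cell cannot be told apart.

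**Figure D1:**
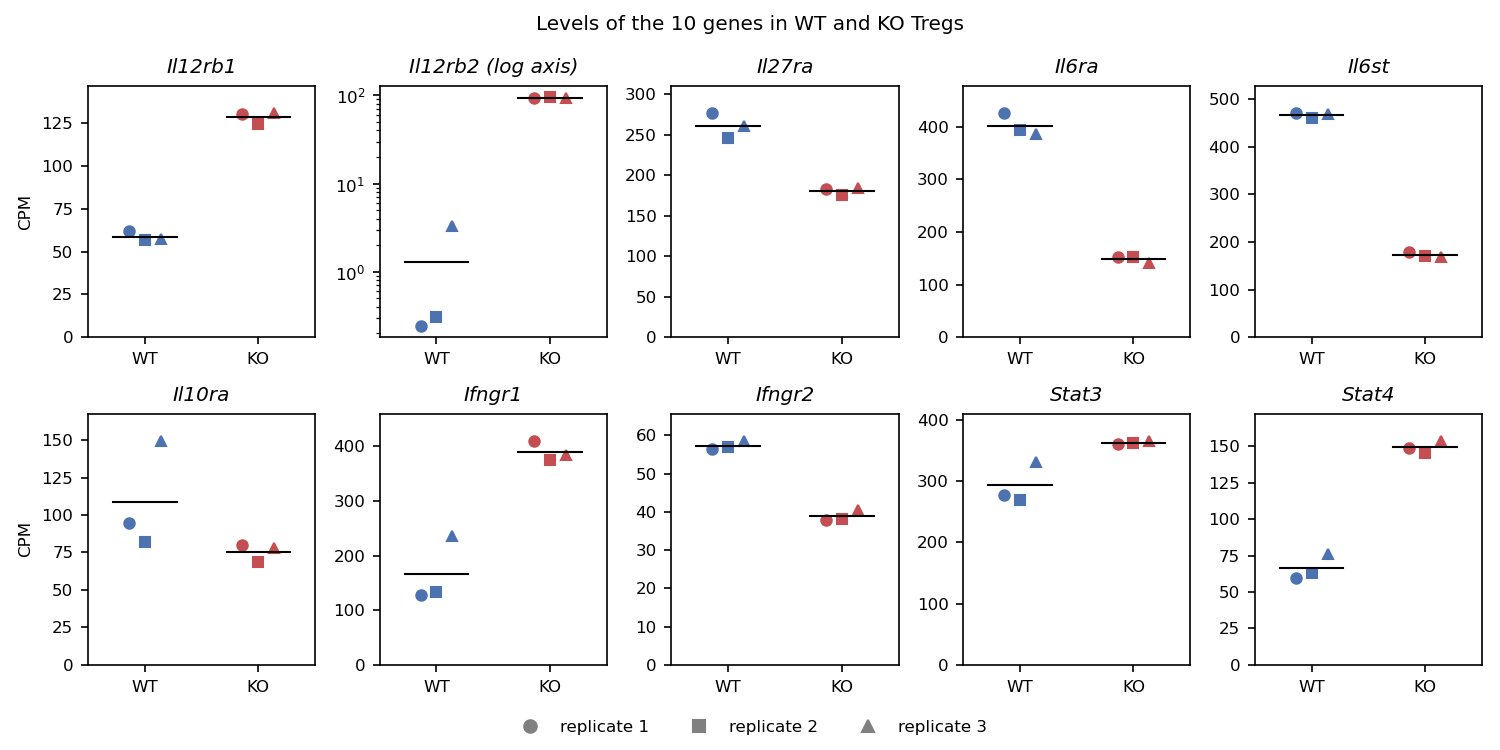
Level in CPM (vertical axis, on a log scale for Il12rb2 and from 0 for the other genes) of each of the 10 genes in the 3 WT and 3 KO samples, with a line at the mean of each genotype. KO samples lie above WT samples for Il12rb1, Il12rb2, Ifngr1, Stat3 and Stat4 and below them for the other 5 genes, and WT replicate 3 (blue triangle) lies apart from the other WT samples for Il12rb2, Ifngr1 and Il10ra.

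The IL-12 receptor was examined first. Il12rb2, on chromosome 6 at 67285986 to 67376293 (minus strand), encodes the chain that recruits STAT4. It had 0.244, 0.304 and 3.30 CPM in WT Tregs, from 9, 10 and 110 counts, against 94.4, 94.9 and 92.6 CPM in KO Tregs. The KO samples lay close together, and WT replicate 3, the highest of the WT samples, was still far below them. The log2 fold change was 6.21 (SE 0.71, 95% interval 4.55 to 7.87, adjusted p 0.000548), which placed 39th among the rises of all genes tested. The value was 8.41 when WT replicate 3 was left out. Serbp1, a gene on the opposite strand singled out after its values were seen, shares 1519 exon bases with Il12rb2, or 40.0% of the exons of Il12rb2. Serbp1 was 502 ± 15.4 CPM in WT Tregs and 590.3 ± 22.4 CPM in KO Tregs (SD, n = 3), and its log2 fold change of 0.23 was not called. Whether the counting used strand was not given in the sources used here, so Il12rb2 counts are uncertain to the extent of these shared bases. In WT replicate 1, 9 counts of Il12rb2 stood beside 18427 counts of Serbp1.

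Il12rb1, on chromosome 8 at 70808360 to 70823542 (plus strand), encodes the chain that IL-12 and IL-23 receptors share. Its level was 61.7, 56.8 and 57.1 CPM in WT Tregs, against 130.3, 125 and 131 CPM in KO Tregs. All KO samples exceeded all WT samples, and both groups were tight. The log2 fold change was 1.14 (SE 0.07, 95% interval 0.98 to 1.29, adjusted p 3.06e-05). Unlike Il12rb2, this chain was present in WT Tregs at a level far above the floor in each sample.

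The chains of the IFN-γ receptor were compared next. Ifngr1, on chromosome 10 at 19591949 to 19610229 (plus strand), encodes the chain that binds the cytokine. It had 128, 134 and 235 CPM in WT Tregs, against 410.1, 374 and 384 CPM in KO Tregs. WT replicate 3 was 1.80 times the mean of the other WT samples and still below every KO sample. The log2 fold change was 1.23 (SE 0.22, 95% interval 0.72 to 1.75, adjusted p 0.00364), and it was 1.57 without WT replicate 3. Ifngr2, on chromosome 16 at 91547059 to 91564007 (plus strand), encodes the second, signal-transducing chain. It had 56.4, 56.9 and 58.6 CPM in WT Tregs, against 37.9, 38.2 and 40.4 CPM in KO Tregs. The KO samples were all below the WT samples by a similar step, but the log2 fold change of -0.56 (95% interval -0.73 to -0.40, SE 0.07, adjusted p 0.000775) fell just short of the fold cutoff. It passed with library totals alone, at -0.60, and without KO replicate 3, at -0.59.

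The IL-6 receptor consists of Il6ra, which binds IL-6, and Il6st, which encodes gp130, the signaling chain that IL-6 shares with IL-27, LIF, OSM and other cytokines. Il6ra, on chromosome 3 at 89869324 to 89913196 (minus strand), had 426, 394 and 386 CPM in WT Tregs, against 152, 152 and 140.1 CPM in KO Tregs. Il6st, on chromosome 13 at 112464070 to 112506860 (plus strand), had 471, 461 and 469 CPM in WT Tregs, against 179.6, 170.1 and 168 CPM in KO Tregs. For both genes the WT samples were all more than double the KO samples, and WT replicate 3 did not stand apart. The log2 fold change was -1.44 (SE 0.07, 95% interval -1.61 to -1.28, adjusted p 1.71e-05) for Il6ra and -1.44 (SE 0.06, 95% interval -1.58 to -1.29, adjusted p 9.99e-06) for Il6st. An antisense gene, Gm42809, shares 242 bases (2.8%) of the exons of Il6ra.

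Il27ra, on chromosome 8 at 84030286 to 84042600 (minus strand), encodes the chain that pairs with gp130 to bind IL-27. It had 277, 245 and 261 CPM in WT Tregs, against 183, 176 and 184 CPM in KO Tregs. The groups did not overlap and the log2 fold change was -0.53 (SE 0.07, 95% interval -0.69 to -0.37, adjusted p 0.000958), under the fold cutoff. Il10ra, on chromosome 9 at 45253837 to 45269149 (minus strand), encodes the chain that gives the IL-10 receptor its specificity. It had 94.4, 81.8 and 149.6 CPM in WT Tregs, against 80.0, 68.4 and 77.9 CPM in KO Tregs. The lowest WT sample was only slightly above the highest KO sample, and WT replicate 3 was 1.70 times the mean of the other WT samples. The log2 fold change of -0.53 (SE 0.21, 95% interval -1.01 to -0.04, adjusted p 0.0811) was under the fold cutoff. It was -0.23 without WT replicate 3, and Il10ra was called without WT replicate 1 (-0.62) or WT replicate 2 (-0.70).

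Stat4, on chromosome 1 at 51987106 to 52107189 (plus strand), encodes the STAT protein of IL-12 signaling. It had 59.5, 63.2 and 75.9 CPM in WT Tregs, against 149, 145 and 154 CPM in KO Tregs. The KO samples were all nearly double the highest WT sample or more, and the log2 fold change was 1.17 (SE 0.10, 95% interval 0.95 to 1.40, adjusted p 0.000138). A noncoding gene on the same strand, Gm28177, shares 1033 exon bases (26.7%) with Stat4, and its part in the counts was not tested. Stat3, on chromosome 11 at 100886806 to 100939594 (minus strand), encodes the STAT protein of IL-6 and IL-10 signaling. It had 278, 269 and 332 CPM in WT Tregs, against 360.0, 361 and 366 CPM in KO Tregs. The KO samples were above the WT samples by a smaller step than for Stat4, with a log2 fold change of 0.31 (SE 0.09, 95% interval 0.10 to 0.52, adjusted p 0.0287) that was under the fold cutoff. Stat3 shares 72 exon bases (0.756%) with Stat5a.

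**Figure D2:**
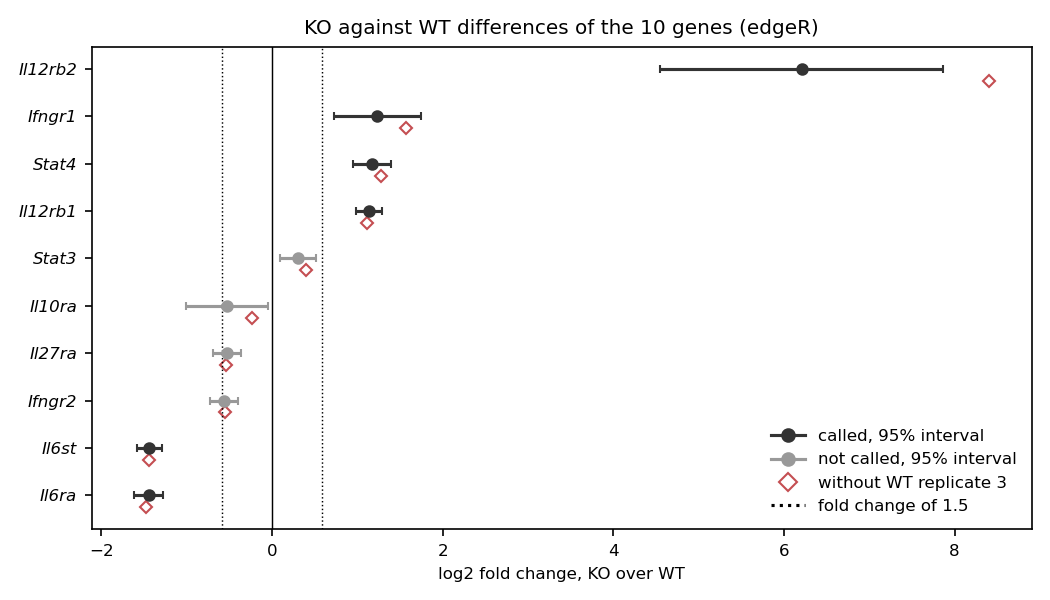
Fitted log2 fold change of KO over WT (horizontal axis) of the 10 genes, with 95% intervals as bars, the value without WT replicate 3 as an open diamond, and dotted lines at a fold change of 1.5. Il12rb2, Ifngr1, Stat4 and Il12rb1 are called higher and Il6st and Il6ra lower, and leaving out WT replicate 3 moves Il12rb2 from 6.21 to 8.41 and Il10ra from -0.53 to -0.23.

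To compare levels between genes, CPM was divided by the exon length of each gene in kb (CPM per kb). That length includes the bases that Il12rb2 shares with Serbp1 (40.0%) and Stat4 with Gm28177 (26.7%). Levels and ratios of these genes are uncertain to that extent. In WT Tregs the order of mean levels was Il27ra (74.7), Ifngr1 (58.2), Il6ra (46.5), Il6st (42.1), Il10ra (31.0), Stat3 (30.7), Stat4 (17.1), Ifngr2 (15.2), Il12rb1 (14.3) and Il12rb2 (0.339). Neighbors in this order had overlapping sample values except at 3 places, between Il6ra and Il6st, between Stat3 and Stat4, and between Il12rb1 and Il12rb2. In KO Tregs the order in CPM per kb was Ifngr1 (137), Il27ra (51.8), Stat4 (38.6), Stat3 (38.0), Il12rb1 (31.3), Il12rb2 (24.8), Il10ra (21.6), Il6ra (17.1), Il6st (15.5) and Ifngr2 (10.3). There the sample values of neighbors overlapped only for Stat4 and Stat3. Il6ra and Il6st thus moved from places 3 and 4 to places 8 and 9.

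Because receptors need both chains, ratios of CPM per kb between partners were compared in each sample. With 20 possible arrangements of the genotype labels, the design allows no exact two-sided permutation p below 0.1, so none of the 6 ratios could pass 0.05. Il12rb2 was 0.00429, 0.00580 and 0.0626 of Il12rb1 in WT Tregs, against 0.783, 0.823 and 0.766 of it in KO Tregs. By this measure, which carries the uncertainty of the shared bases, the second chain came near the level of the first in KO. The geometric mean of this ratio was 68.2 times higher in KO (exact permutation p 0.1, adjusted over 6 ratios 0.15). The ratio of Ifngr1 to Ifngr2 was 3.005, 3.11 and 5.30 in WT Tregs, against 14.3, 13.0 and 12.6 in KO Tregs. It was 3.61 times higher in KO, with no overlap between genotypes and the same p. The ratio of Il6ra to Il6st was 1.16, 1.10 and 1.06 in WT Tregs, against 1.08, 1.14 and 1.07 in KO Tregs. These values overlapped, and the ratio of the geometric means was 0.996 (exact permutation p 1), so both chains of the IL-6 receptor fell by nearly the same factor. Il27ra fell less than its partner, and its ratio to Il6st went from a geometric mean of 1.77 to 3.33, or 1.88 times higher in KO, with no overlap (exact permutation p 0.1). Stat4 to Stat3 went from 0.556 to 1.01, also with no overlap and the same p. Il10ra was 1.54, 1.47 and 2.51 times its partner Il10rb in WT Tregs, against 2.39, 2.36 and 2.58 times it in KO Tregs, and the genotypes overlapped through WT replicate 3 (exact permutation p 0.3, adjusted 0.36).

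**Figure D3:**
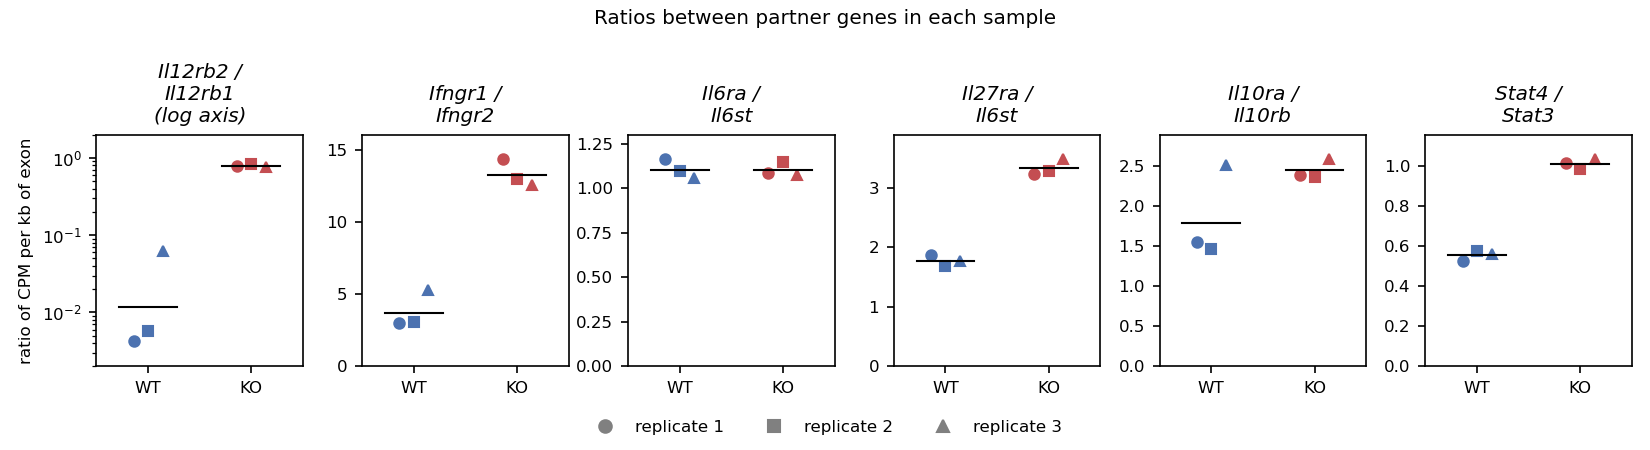
Ratio of CPM per kb of exon between 6 pairs of partner genes (vertical axis, log scale for Il12rb2 over Il12rb1 and from 0 for the others) in each WT and KO sample, with lines at the geometric means. The ratio of Il12rb2 to Il12rb1 is 0.00429 to 0.0626 in WT and 0.766 to 0.823 in KO, while that of Il6ra to Il6st overlaps between the genotypes.

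The ligands of these receptors were examined in the same table, which counts RNA of the sorted cells only. Of 18 ligand genes, 8 were tested, of which 4 were called higher and 1 lower in KO (median log2 fold change 1.36). Over all genes tested, 24.4% were called, 11.9% as higher and 12.5% as lower in KO. Ifng, the gene of IFN-γ, had 3.78, 4.54 and 2.64 CPM in WT Tregs, against 82.8, 84.7 and 84.4 CPM in KO Tregs (log2 fold change 4.52, SE 0.18, adjusted p 7.11e-06). The KO samples thus had higher RNA of both IFN-γ and the chain that binds it. Lif rose from 36.0 ± 7.24 to 175 ± 3.91 CPM and Osm from 30.3 ± 1.88 to 55.3 ± 0.89 CPM (SD, n = 3), and both act through gp130, whose RNA fell. Il6 was barely detected, with 0, 0 and 3 counts in the WT samples and 13, 31 and 17 counts in the KO samples. It was at least 5.87-fold higher in KO against the floor of 3 counts in a library. All its WT counts were under the filter's minimum count of 10, so it was tested only through its KO counts. Its call is therefore a description. The median of the list does not depend on where between Lif and Ifng this gene stands. It lies between Osm (log2 fold change 0.87) and Il22 (1.84, not called), and Il22 ranged from 1.25 to 10.3 over the alternatives. Clcf1, whose product acts through gp130 and LIFR, fell from 128 ± 18.4 to 69.4 ± 3.27 CPM (SD, n = 3). Il10 had 11.8, 12.1 and 35.0 CPM in WT Tregs, against 22.0, 21.6 and 21.2 CPM in KO Tregs, so the KO samples lay within the WT range (adjusted p 0.812). When WT replicate 3 was left out, Il10 was called higher (log2 fold change 0.85). Il22 (0, 0 and 3.60 CPM in WT, 3.39 to 5.22 CPM in KO) and Ebi3 (18.5 ± 3.38 CPM in WT, 16.6 ± 1.86 CPM in KO, SD, n = 3) were not called, and Il22 was called higher without WT replicate 3.

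Of 11 partner receptor chains, 6 were tested, of which 3 were called higher and 2 lower (median log2 fold change 0.80). Over all genes tested, 24.4% were called, 11.9% as higher. The list median lies between Il20rb (0.79) and Osmr (0.82, SE 0.81), which was not called. Il10rb, the second chain of the IL-10 and IL-22 receptors, had 66.6, 60.8 and 64.9 CPM in WT Tregs, against 36.5, 31.5 and 32.9 CPM in KO Tregs. Its fall was -0.93 on the log2 scale (SE 0.09, adjusted p 0.000208), so that of the chains of the IL-10 receptor the shared one was called and Il10ra was not. Whether these chains differ in their change was not shown, since the ratio given above overlapped between genotypes (exact permutation p 0.3). Il11ra1, the IL-11 binding chain, fell from 9.84 ± 0.11 to 4.95 ± 0.99 CPM (SD, n = 3). Il20rb rose from 6.86 ± 1.60 to 11.9 ± 1.32 CPM (SD, n = 3). Lifr, the LIF binding chain, and Il31ra were called higher at low levels, 1.03 and 1.61 CPM in KO, and each lost its call in several fits that left out 1 sample, while the log2 fold change of Il31ra went from 1.74 to 2.81 when WT replicate 1 was left out. Osmr was at 0.218 ± 0.098 CPM in WT Tregs and 0.386 ± 0.284 CPM in KO Tregs (SD, n = 3) and was not called.

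Among the 9 other JAKs and STATs tested, 1 was called, against 24.4% of all genes tested, and the median log2 fold change was -0.14. Jak2, a kinase bound to Il12rb2 and Ifngr2 proteins, had 152, 167 and 206 CPM in WT Tregs, against 326, 326 and 324 CPM in KO Tregs (log2 fold change 0.89, SE 0.11, adjusted p 0.000721). Stat2 differed by 0.50 (adjusted p 0.121), and by 0.85 without WT replicate 3, when it was called. Tyk2, the kinase bound to Il12rb1, had a log2 fold change of -0.39 (adjusted p 0.00978) and Jak1 of -0.15 (adjusted p 0.133). Of the 14 inhibitors and sheddases tested, edgeR and DESeq2 each called 0 (median log2 fold change 0.06). With edgeR, 4 had p under 0.05 and adjusted p under 0.1, but their changes were under the fold cutoff. Socs3, the feedback inhibitor that binds gp130, had 107, 109 and 246 CPM in WT Tregs, against 249, 238 and 246 CPM in KO Tregs (log2 fold change 0.67, adjusted p 0.118). WT replicate 3 was at the KO level, and without it Socs3 was called higher, at 1.17. Socs1, which binds JAKs, was 46.7 ± 4.05 CPM in WT Tregs and 51.4 ± 8.22 CPM in KO Tregs (SD, n = 3), and the phosphatase gene Ptpn6 had a log2 fold change of -0.44 (adjusted p 0.00551).

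Genes that are known targets of the pathways were then counted. The lists were chosen with earlier results of these data known, so the counts are descriptions. Over all genes tested, 11.9% were called higher in KO. All 10 IL-12 and STAT4 target genes tested were called higher in KO (median log2 fold change 2.20). Gzmb, the gene of the cytotoxic protease granzyme B, had 12.1, 12.2 and 36.8 CPM in WT Tregs, against 437, 446 and 438 CPM in KO Tregs (log2 fold change 4.44, SE 0.45, adjusted p 0.000316), and without WT replicate 3 the value was 5.18. Tbx21, which encodes the Th1 factor T-bet, rose by 3.69 and Cxcr6, a chemokine receptor gene, by 3.16 on the log2 scale. Hlx, a T-bet partner, was called at low counts (1, 0 and 8 in WT replicates 1 to 3, and 22, 17 and 33 in KO replicates 1 to 3). All its WT counts were under the filter's minimum count of 10, so Hlx was tested only through its KO counts and its call is a description. Its log2 fold change was 2.84, and 5.20 without WT replicate 3. It was not called without WT replicate 1, KO replicate 1 or KO replicate 3, when the values were 2.40, 2.89 and 2.49. Of 16 IFN-γ target genes, 10 were called higher, and the fitted change was positive for all 16 (median 0.75). Gbp2, a guanylate-binding protein gene, had 71.6, 78.4 and 130.2 CPM in WT Tregs, against 505, 478 and 477 CPM in KO Tregs (log2 fold change 2.38, SE 0.22, adjusted p 0.000202). Ciita, the master regulator of MHC class II, rose by 1.40 on the log2 scale, and the immunity-related GTPase gene Igtp went from a mean of 236 to 472 CPM. Cxcl9, a chemokine gene, was at 0.453 ± 0.549 CPM in WT Tregs and 3.22 ± 0.63 CPM in KO Tregs (SD, n = 3), with a log2 fold change of 2.80 that was 4.53 without WT replicate 1. Since IFN-γ and T-bet share targets, and several of these genes are expressed in myeloid cells and NK cells, membership in a list does not assign a gene to 1 pathway.

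Of 12 STAT3 target genes tested, 2 were called higher and 1 lower in KO (median log2 fold change 0.15), a share close to the 24.4% called over all genes. Il21, a cytokine gene, had 0.244, 0.274 and 1.32 CPM in WT Tregs, against 6.87, 7.96 and 7.74 CPM in KO Tregs, and its log2 fold change of 3.62 (adjusted p 0.00247) was 4.84 without WT replicate 3. Bcl3, a coactivator of NF-κB, rose from 58.6 ± 6.68 to 101.1 ± 4.43 CPM (SD, n = 3). Bcl6, the repressor that defines follicular T cells, had 42.8, 46.6 and 22.3 CPM in WT Tregs, against 13.3, 13.9 and 11.9 CPM in KO Tregs. Each KO sample was below WT replicate 3, the lowest of the WT samples, and the log2 fold change was -1.51 (SE 0.26, adjusted p 0.00289).

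**Figure D4:**
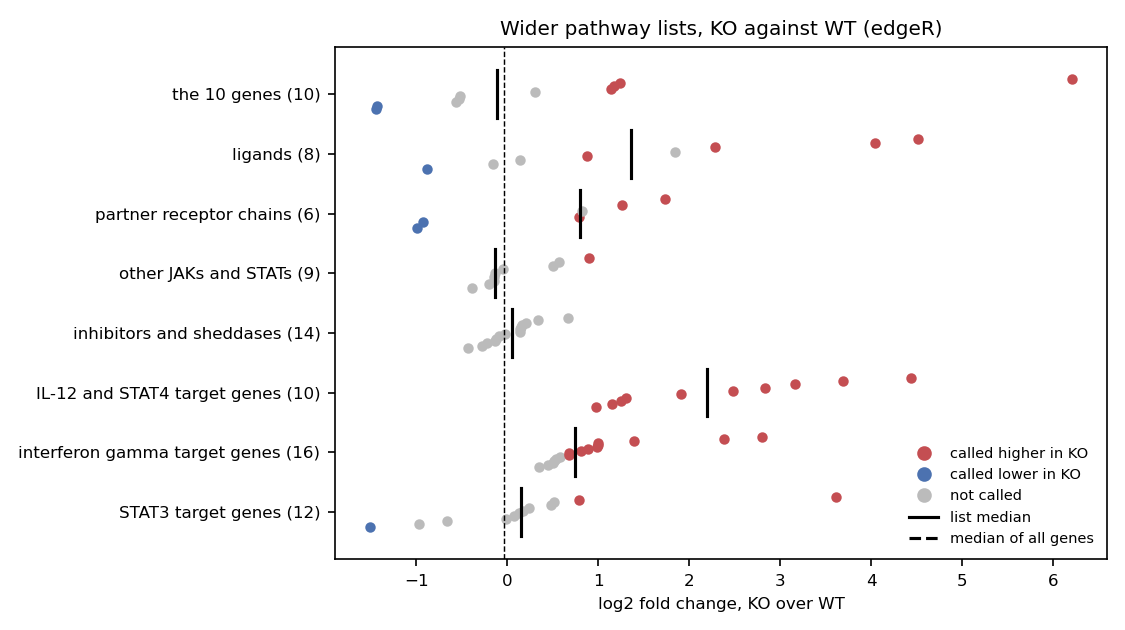
Fitted log2 fold change of KO over WT (horizontal axis) of every tested gene of the 10 members and of 7 wider lists, with the number tested in brackets, calls in color, the median of each list as a bar and the median of all genes (-0.04) as a dashed line. All 10 IL-12 and STAT4 targets are called higher, and 10 of 16 IFN-γ targets, while STAT3 targets and inhibitors lie on both sides of 0. Over all genes tested, 11.9% are called higher, and the lists were chosen with earlier results known.

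For each member, the gene of these lists with the most similar pattern was found by Pearson correlation of log2 CPM over the 6 samples, in a pool of 84 genes. Since all points share the same 2 genotypes, any pair of genes that differ between them correlates, and these values are descriptions. Il6ra and Il6st were most like each other (r = 0.998). Il12rb1 was most like Il18rap, the accessory chain of the IL-18 receptor (r = 0.998), and Il12rb2 most like Gbp4 (r = 0.999). Ifngr1 was closest to Igtp (r = 0.998), Stat4 to Gbp2 (r = 0.998) and Stat3 to Irf1 (r = 0.995). Ifngr2 was closest to Il6st (r = 0.988) and Il27ra to Il10rb (r = 0.989). Il10ra, whose WT values were uneven, was closest to Stat5b (r = 0.952).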

How the data were processed

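The data were bulk RNA-Seq counts for 3 WT and 3 KO samples of sorted Tregs. Per the study's methods and the submitters' processing notes, the authors filtered reads with SOAPnuke, used HISAT2 for alignment to mm10 with 1 alignment kept for each read, and StringTie for quantification. The authors deposited whole-number counts per gene without normalization. How these were made whole, the annotation and the use of strand are not given in the sources used here. The smallest sum of a row was 60 counts, so low genes had been removed.

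The counts were tested with R 4.3.3 and edgeR 4.0.16 (filterByExpr at a minimum count of 10, TMM scaling, quasi-likelihood F-test, two-sided, no covariate, all 6 samples). Of 13709 rows, 13594 were tested and 115 removed. Benjamini-Hochberg adjustment ran over these 13594 genes. The SE was the size of the log2 fold change over the square root of F. The cutoffs (fold change above 1.5, p under 0.05, adjusted p under 0.1) were those of the study. CPM used the TMM-scaled totals. The floor of 3 counts reflects counting error alone, as reads without molecular identifiers may be copies. Exact permutation tests were used for the 6 chain ratios. Alternatives were DESeq2 1.42.0 on the unfiltered table, other scalings, no filter, other cutoffs, leaving out each sample, and a replicate block. The edgeR and DESeq2 scripts were tested on simulated counts.

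Positions, strands of windows and promoter sequences came from RefSeq for GRCm38.p6 (mm10), and exon lengths and overlaps from GENCODE M21. The members, gene lists, cutoffs and alternatives were chosen with earlier results of these data known. The lists were written from general knowledge. Genes named are the members, Zfp335, tested genes of the ligand, partner chain, JAK and STAT and inhibitor lists, the 4 largest called changes in each direction in each target list, and the gene most like each member. Serbp1, Junb and Pim1 were chosen after their values were seen. A few listed genes enter the counts and are not reported here by name. Sequencing batches were not given, so no comparison was repeated within batches. No pair of samples agreed within sampling noise, and each was counted as 1 replicate. That comparison cannot tell whether samples came from separate mice.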

Additional observations from a re-analysis of the deposited data

How the results depend on the processing

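Over 13 alternatives, the 10 members gave 130 results, of which 123 kept their direction and their side of the cutoffs, 7 crossed to the called side and 0 reversed. The 4 members called higher and the 2 called lower were called in each of these fits. Dropping the fold cutoff at an adjusted p under 0.05 called 5244 genes and 4 members lower, since members under the fold cutoff then pass, and glmTreat against a fold change of 1.5 called 1686 genes. DESeq2 called 3402 genes, 3224 of them shared with edgeR. Leaving out the 6 samples in turn, the fits called 2867 to 3667 genes, with 2 to 3 members lower. Direction was not kept for Il10 (-0.12 to 0.85), Junb (-0.95 to 0.14) or Pim1 (-0.043 to 0.69). For Junb this came without WT replicate 3, and for Il10 and Pim1 without WT replicate 1 or 2. Of the other named genes, 20 results lost and 9 gained a call among 520. Every fit, with all 6 samples or fewer, assumes that both genotypes vary alike. The biological coefficient of variation was 0.263 within WT and 0.0703 within KO. The scalings shifted the median of all genes to between -0.07 and -0.02.

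Same-numbered samples had correlations of 0.038, 0.040 and -0.012 between their deviations from the genotype means. Samples with different numbers had correlations of -0.064 to 0.029. With 3 samples per genotype, these values cannot decide whether the replicate numbers pair the samples. With the replicate block, 3190 genes were called, and 4 members were higher and 2 lower, as without it. Among other named genes the block gave Socs3 a call (0.78) and took that of Lifr (1.28). Genes near the floor of 3 counts, such as Il6 and Hlx, are limited by depth.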

Other observations

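The STAT3 target genes Junb and Pim1, which were not called, had their highest value in WT replicate 3 and were singled out after their values were seen. Junb, a subunit of the AP-1 factor, had 555, 579 and 1835 CPM in WT Tregs, against 579.8, 621 and 675 CPM in KO Tregs. Pim1, a kinase gene, had 434, 407 and 960.0 CPM in WT Tregs, against 682, 674 and 678 CPM in KO Tregs. Among the WT samples, Il10, Il22 and Socs3 were also highest in replicate 3. For Pim1, all KO samples lay between WT replicate 3 and the other WT samples, and without WT replicate 3 it was called, with a log2 fold change of 0.69. For Junb, all KO samples were below WT replicate 3 and the lowest was level with WT replicate 2, and without WT replicate 3 the value was 0.14 and not called.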
